A study of Mus musculus with 6 samples.

Results

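The circadian clock genes were followed in RNA of hippocampal astrocytes from mice whose microglia had been ablated. The 10 members were taken by name, as rows of the deposited tables whose gene symbol was *Arntl*, *Clock*, *Per1*, *Per2*, *Per3*, *Dbp*, *Nr1d1*, *Nr1d2*, *Tef* or *Ciart*. All 10 were found among the 24421 genes listed, and all 10 passed the filter on low values, which kept 15137 genes. Each of 6 libraries held the pooled hippocampi of 2 adult male mice on a C57BL/6 background, taken 2 days after intraperitoneal PBS (3 libraries) or diphtheria toxin (DT) at 50 μg/kg (3 libraries). Every mouse of both groups was Siglechdtr/dtr, that is, homozygous for a DT receptor knocked into the gene of the microglial lectin Siglec-H. An effect of the toxin itself and an effect of the loss of microglia therefore cannot be told apart in this design. Astrocytes were isolated with magnetic beads against the surface antigen ACSA-2 after cells carrying CD11b had been removed. The time of day of injection or of dissection was not given in the sources used here. Whether both groups were taken at the same phase of the day is therefore not known from the description alone.

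The molecular clock is a feedback loop of transcription. BMAL1, the product of *Arntl*, pairs with CLOCK and binds E-box elements in the genes of its own inhibitors, the PER and CRY proteins. The same elements drive *Dbp* and *Tef*, whose proteins bind D-box elements, and *Nr1d1* and *Nr1d2*, whose proteins REV-ERBα and REV-ERBβ repress *Arntl* through ROR elements. In mouse tissues *Arntl* transcripts therefore run in roughly opposite phase to those of *Dbp*, *Nr1d1* and the *Per* genes. Astrocytes hold such a clock of their own.

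The elements are shown here because they are the letters through which the loop is known to act, and they did not choose the genes. RefSeq windows on GRCm38.p6, the build of mm10, held 250 bases before to 50 bases after an annotated start and were found for 9 of the 10 genes, *Per2* being the exception. The E-box letters CACGTG, which read the same on both strands, were present in windows of *Per1*, *Tef* and *Ciart*, against 7.15% of all 32851 windows. D-box letters, searched as TTATGTAA or TTACGTAA on both strands, were present in *Per3*, against 1.06% of windows. The ROR element letters TAGGTNA, searched on both strands, were present in *Arntl*, against 8.29% of windows. The 9 genes had 14 windows, and a gene was counted if any of them held the letters, whereas the shares are per single window. Such a match is a description of the letters in the window, not of binding. The E-box motif is in capitals in the 250 bases before the start of *Ciart* (chr3:95882229-95882478, minus strand), of *Per1* (chr11:69098699-69098948, plus strand) and of the downstream start of *Tef* (chr15:81811164-81811413, plus strand).
Ciart: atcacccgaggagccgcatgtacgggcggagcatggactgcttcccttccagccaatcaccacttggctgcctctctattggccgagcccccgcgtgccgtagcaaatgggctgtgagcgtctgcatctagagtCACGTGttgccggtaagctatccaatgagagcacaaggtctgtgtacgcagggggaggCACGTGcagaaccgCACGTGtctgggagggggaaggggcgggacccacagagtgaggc
Per1: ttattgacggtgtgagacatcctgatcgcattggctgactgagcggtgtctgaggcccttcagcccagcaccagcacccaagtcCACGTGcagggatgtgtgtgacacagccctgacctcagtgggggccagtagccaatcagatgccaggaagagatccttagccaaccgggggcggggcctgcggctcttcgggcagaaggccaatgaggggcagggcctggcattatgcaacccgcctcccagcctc
Tef: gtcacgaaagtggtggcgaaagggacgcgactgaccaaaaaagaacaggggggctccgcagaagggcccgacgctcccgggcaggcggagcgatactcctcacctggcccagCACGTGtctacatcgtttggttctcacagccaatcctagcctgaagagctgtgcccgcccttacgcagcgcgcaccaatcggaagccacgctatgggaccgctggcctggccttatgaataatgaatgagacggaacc

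*Ciart* had 3 such hexamers, which began at positions -116, -58 and -44 from its start, whereas *Per1* and this *Tef* window had a single one. The D-box motif is in capitals in the 250 bases before the start of *Per3* (chr4:151044666-151044915, minus strand), where it occurred at 2 places.
Per3: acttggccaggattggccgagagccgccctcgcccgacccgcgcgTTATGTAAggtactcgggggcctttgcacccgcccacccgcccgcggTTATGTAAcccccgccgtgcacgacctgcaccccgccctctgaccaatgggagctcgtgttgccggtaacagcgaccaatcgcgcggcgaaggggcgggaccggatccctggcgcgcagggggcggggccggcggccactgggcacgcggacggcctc

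The ROR element motif is in capitals in a pair of 30-base stretches annotated as 5′ UTR of *Arntl* on the plus strand (chr7:113207493-113207522 and chr7:113207529-113207558).
Arntl upstream site: ttggtcggaaagTAGGTTAgtggtgcgaca
Arntl downstream site: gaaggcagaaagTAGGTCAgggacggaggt

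No clock gene passed the test between DT and PBS. Levels are given as CPM, read counts that the authors had scaled to a common library size. Differences were taken between log2(CPM + 0.1) values, and limma was fitted to all 15137 genes together, two-sided and with Benjamini-Hochberg adjustment. At an adjusted p-value under 0.05, 0 of the 10 members were called by limma, where 0.713% of all genes tested were called. At an unadjusted p-value under 0.05 there were 2 members, *Arntl* and *Nr1d1*, where 10.4% of all genes reached that value. On the recovered reads, the quasi-likelihood and exact tests of edgeR called 0 members. DESeq2 called 1 member, where it called 2.15% of all genes. In the quasi-likelihood test 3 members had an unadjusted p-value under 0.05, where 10.3% of all genes had one. The estimate was below 0 for 8 members and above 0 for 2, *Clock* and *Per1*, with a median of -0.11 against -0.0052 over all genes tested. The 95% intervals of the 10 differences ran from -0.54 to 0.41 on the log2 scale, so that fold changes below 0.689 or above 1.33 lay outside every one of them. The libraries held 21704891 to 32933975 reads, with at least 952 reads per library for each member but *Ciart*. Nothing in the sources says whether a replicate number stands for one of the 3 independent experiments.

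**Figure D1:**
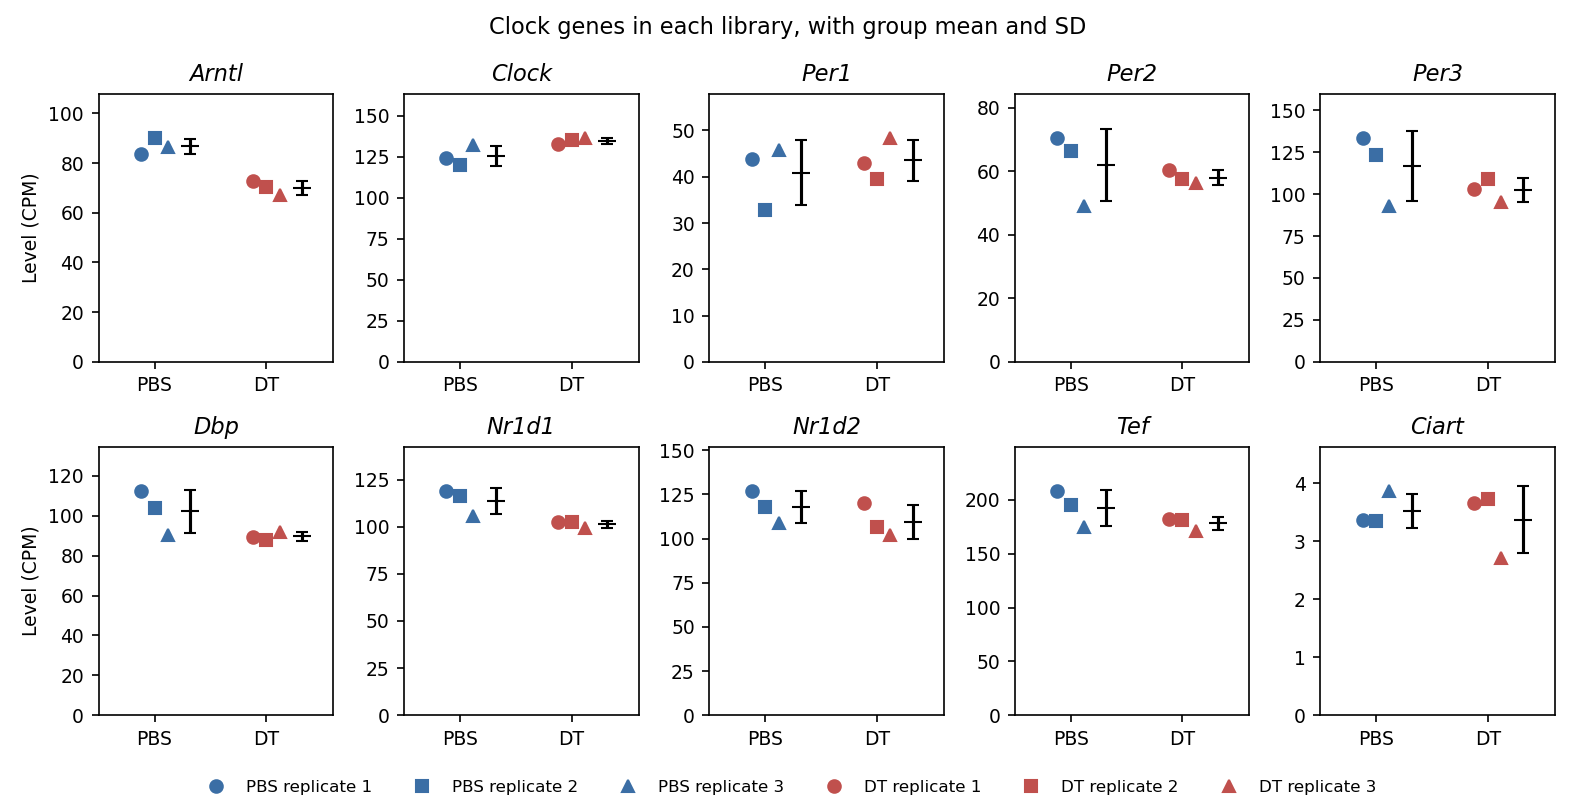
Level in CPM (y axis, from 0) of each clock gene in the 3 PBS (blue) and 3 DT (red) libraries, with the symbol shape giving the replicate and the group mean ± SD in black. *Arntl*, *Clock* and *Nr1d1* are the members whose groups do not overlap, and PBS replicate 3 lies below the other PBS libraries in *Per2*, *Per3*, *Dbp*, *Tef*, *Nr1d1* and *Nr1d2*.

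*Arntl* encodes BMAL1, the partner without which CLOCK cannot drive the loop. It lies on the plus strand of chromosome 7 from 113207465 to 113314126 in mm10. Its level was 83.8, 89.98 and 86.4 CPM in the PBS libraries and 72.6, 70.4 and 67.1 CPM in the DT libraries. Every DT library lay below every PBS library, and the means were 86.7 ± 3.11 and 70.1 ± 2.79 CPM (SD, n = 3 each). The log2 difference was -0.31 (standard error 0.06, 95% interval -0.45 to -0.16), or 19.2% lower, and its adjusted p-value was 0.105 with limma. It was the member with the smallest p-value. DESeq2 on the recovered reads gave it an adjusted p-value of 0.0122, where that tool called 2.15% of genes. Over 17 alternatives its adjusted p-value lay between 0.0122 and 0.340, and its difference stayed between -0.33 and -0.28.

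*Clock* spans 76209868 to 76304792 on chromosome 5 (minus strand) and encodes the partner of BMAL1. It stood at 125, 120 and 132 CPM after PBS and at 133, 135 and 136 CPM after DT. The groups did not overlap, but the highest PBS library (132.5 CPM) and the lowest DT library (132.9 CPM) were almost level. The log2 difference was 0.10 (95% interval -0.03 to 0.24, adjusted p = 0.607 with limma). Set against *Arntl* within each library, log2 CPM of *Clock* exceeded that of *Arntl* by 0.57, 0.42 and 0.62 after PBS and by 0.87, 0.94 and 1.02 after DT. Both groups were separate in this measure, which was formed after the values had been seen and was not tested.

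The *Per* genes encode the PERIOD proteins, which enter the nucleus with the cryptochromes and inhibit CLOCK and BMAL1. *Per1*, which is also induced acutely by light, by cAMP and by glucocorticoids, was at 43.8, 32.9 and 45.9 CPM after PBS and at 42.9, 39.5 and 48.3 CPM after DT. The groups overlapped and replicate 2 was the lowest library of either group. Its log2 difference was 0.10 (95% interval -0.20 to 0.41, adjusted p = 0.842 with limma), and the direction turned to -0.046 without PBS replicate 2.

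*Per2* stood at 70.4, 66.4 and 49.0 CPM after PBS and at 60.5, 57.4 and 56.1 CPM after DT. All DT libraries thus lay inside the range of the PBS libraries. The log2 difference was -0.08 (95% interval -0.37 to 0.21, adjusted p = 0.876 with limma), and it turned to 0.023 without PBS replicate 1. *Per3*, the paralog that is the least needed for rhythm, stood at 133, 123.4 and 93.0 CPM after PBS and at 103, 109 and 95.1 CPM after DT. Here too the DT libraries fell within the PBS range, with a log2 difference of -0.17 (95% interval -0.46 to 0.12, adjusted p = 0.686 with limma).

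The D-box activators came next in the loop. *Dbp*, a direct E-box target with one of the steepest rhythms of any transcript, was at 112, 104 and 90.5 CPM after PBS and at 89.3, 87.7 and 92.1 CPM after DT. The groups overlapped through PBS replicate 3 and DT replicate 3. The log2 difference was -0.18 (95% interval -0.37 to 0.01, adjusted p = 0.4996 with limma). *Tef*, its close relative with the same binding site, was at 208, 195 and 175 CPM after PBS and at 182, 182 and 171 CPM after DT. PBS replicate 3 reached into the DT range, and the log2 difference was -0.11 (95% interval -0.28 to 0.06, adjusted p = 0.663 with limma).

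*Nr1d1* encodes REV-ERBα, the haem-binding nuclear receptor that represses *Arntl*. It spans 98767932 to 98775333 on chromosome 11 (minus strand), where *Thra* overlaps it on the opposite strand. Its level was 119, 117 and 106 CPM after PBS and 102, 102 and 99.3 CPM after DT. Every DT library was lower than every PBS library, and the log2 difference was -0.16 (standard error 0.06, 95% interval -0.31 to -0.02, adjusted p = 0.435 with limma). *Nr1d2*, for the paralog REV-ERBβ, was at 127, 118 and 109 CPM after PBS and at 120, 106 and 102 CPM after DT. Its groups overlapped and its log2 difference was -0.11 (95% interval -0.30 to 0.09, adjusted p = 0.716 with limma). The estimates of both REV-ERB genes and of *Arntl* lay below 0.

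*Ciart*, also called Chrono, encodes a repressor that binds BMAL1. It was read 62 to 115 times per library, the fewest of all members. Levels were 3.36, 3.35 and 3.86 CPM after PBS and 3.67, 3.74 and 2.70 CPM after DT, with DT replicate 3 the lowest. The log2 difference of -0.07 had the widest interval, -0.54 to 0.39 (adjusted p = 0.937 with limma), and turned to 0.073 without DT replicate 3.

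Among the members, 2 had every DT library below every PBS library, *Arntl* and *Nr1d1*, where 7.57% of all genes tested did. The single member with every DT library above was *Clock*, where 8.75% of all genes did. For these 3 genes the exact permutation test of CPM gave a two-sided p = 0.1, the smallest that 3 libraries against 3 allow. For the other 7 members the exact permutation p lay at or above 0.2.

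**Figure D2:**
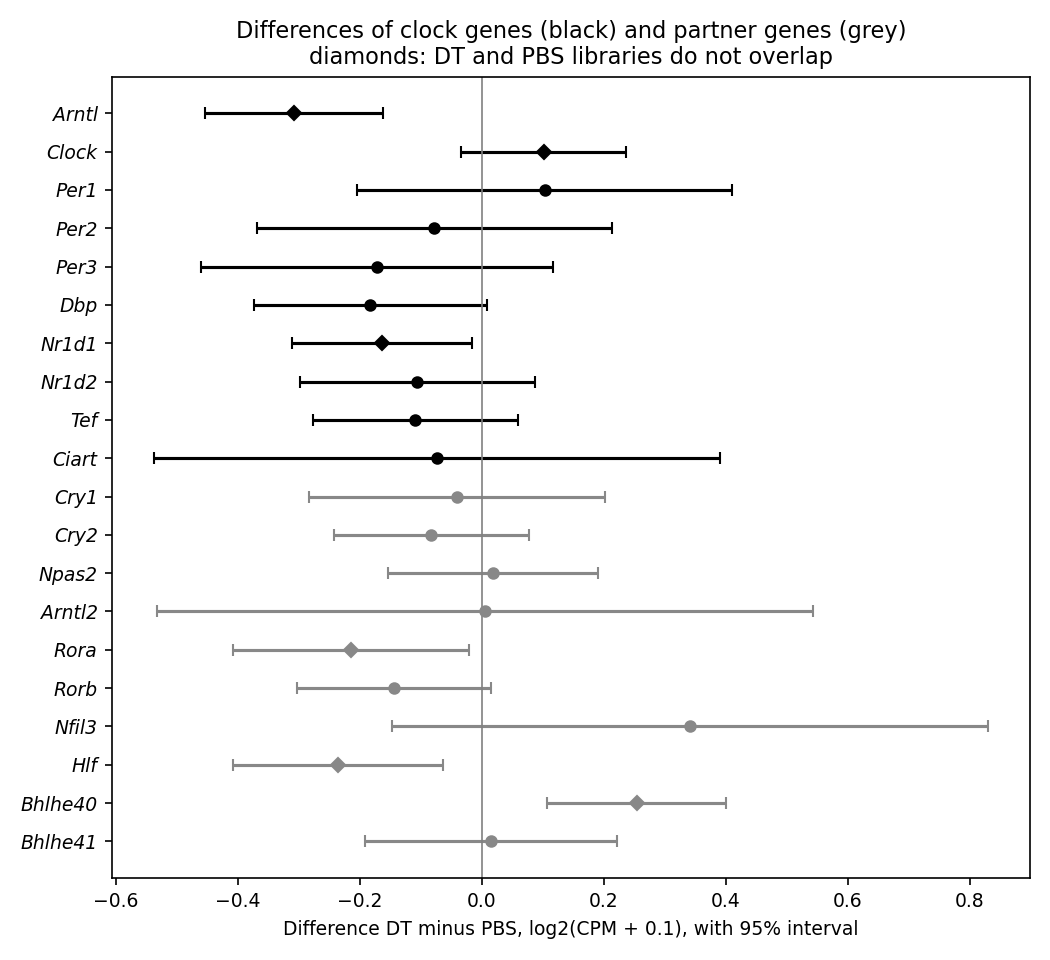
Difference DT minus PBS on the scale of log2(CPM + 0.1) (x axis) with its 95% interval for the 10 clock genes (black) and 10 partner genes (grey). Diamonds mark genes whose groups do not overlap, and intervals that exclude 0 are those of *Arntl*, *Nr1d1*, *Rora*, *Hlf* and *Bhlhe40*.

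In *Per1*, *Nr1d2* and *Ciart* the SD of each group was larger than the difference of the group means, and in *Per2*, *Per3* and *Tef* that of the PBS group was. PBS replicate 3 had the lowest value of its group for 6 of the 10 members, *Per2*, *Per3*, *Dbp*, *Tef*, *Nr1d1* and *Nr1d2*, and the highest for *Clock*, *Per1* and *Ciart*. Over all genes tested, this library was the lowest of its group for 35.0%. In *Per2* it lay 0.32 and in *Per3* 0.31 below the mean of the PBS libraries on the log2 scale. PBS replicate 1 was the highest library in the same 6 genes. After DT, replicate 3 was the lowest library for 7 members, with *Dbp*, *Clock* and *Per1* as exceptions, against 34.8% of all genes tested. The median deviation of the members was -0.11 in PBS replicate 3 and -0.05 in DT replicate 3, where that of all genes tested was -5.7e-05 and 0.

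Without PBS replicate 3, the differences of *Per2* and *Per3* were -0.24 and -0.33, and that of *Dbp* was -0.27. Without PBS replicate 1, the highest library in these genes, the estimates moved the other way, to 0.023 for *Per2*, -0.07 for *Per3* and -0.11 for *Dbp*. *Tef* and *Nr1d2* were at -0.18 and -0.16 without PBS replicate 3, and both were at -0.05 without PBS replicate 1. In the fit without PBS replicate 3, 6 members had an unadjusted p-value under 0.05 and 0 an adjusted one, where 10.6% of all genes had such an unadjusted value. Without any other single library, 1 member had an unadjusted p-value under 0.05, where 7.72% to 11% of all genes did. The within-group SD of *Per1*, *Per2* and *Per3* was 0.21, 0.20 and 0.21 on the log2 scale, at percentiles 65.3, 63.2 and 64.0 of all genes tested. *Arntl* and *Clock* were far tighter, with SDs of 0.05 each, at percentiles 7.19 and 6.17. The median SD of the members was 0.12, against 0.15 over all genes. These comparisons were with tested genes of any level, not with genes of similar level.

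**Figure D3:**
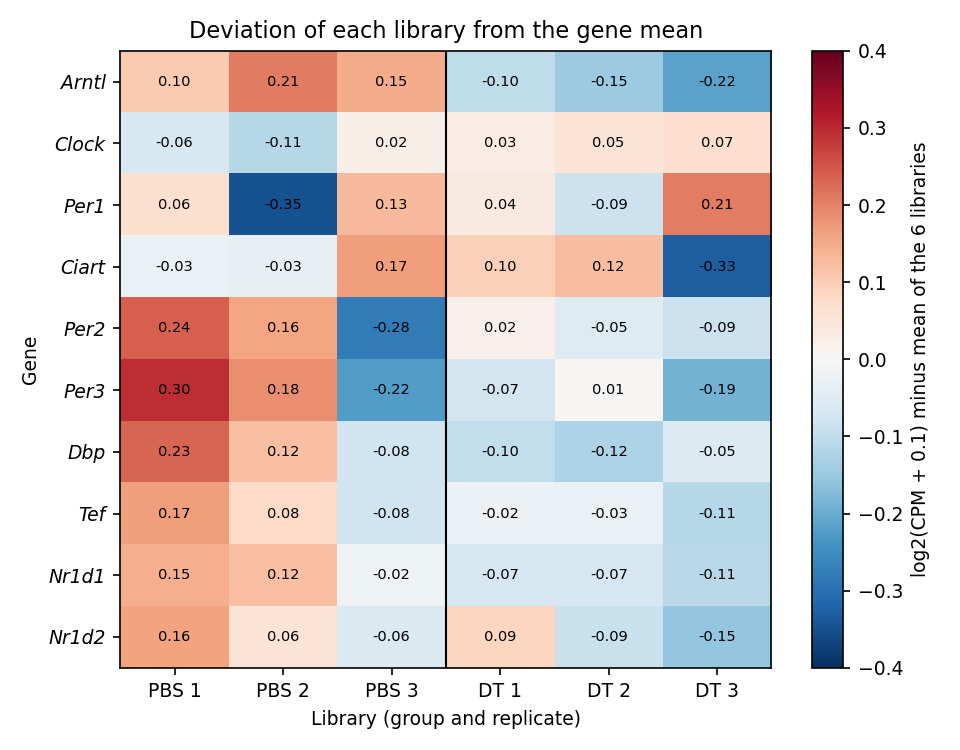
Deviation of each library (columns) from the mean of the 6 libraries for each clock gene (rows), on the scale of log2(CPM + 0.1), with red above and blue below the mean. *Arntl* divides by group, from 0.10 to 0.21 after PBS and from -0.22 to -0.10 after DT, whereas *Per2* and *Per3* divide PBS replicates 1 and 2 from PBS replicate 3.

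The arms of the loop were set against each other within each library. Opposite phase was stated above for *Arntl* against *Dbp*, *Nr1d1* and the *Per* genes, not for *Clock* or *Npas2*. The mean log2 level of the 3 genes *Arntl*, *Clock* and *Npas2*, the last an alternative partner of BMAL1, was taken minus the mean of the other 8 members. The measure was 0.03, 0.13 and 0.29 in the PBS libraries and 0.15, 0.18 and 0.23 in the DT libraries. The DT libraries thus lay inside the range of the PBS libraries, with means of 0.18 ± 0.04 and 0.15 ± 0.13 (SD, n = 3 each). Between the groups the means differed by 0.03, less than the spread of the PBS libraries, and no test was made. The mean of the positive arm was 0.06 lower and that of the other arm 0.10 lower after DT. Within the positive arm the genes went both ways, since the estimate was -0.31 for *Arntl* but 0.10 for *Clock* and 0.02 for *Npas2*. Log2 of *Arntl* over *Dbp* ranged from -0.42 to -0.07 after PBS and from -0.46 to -0.30 after DT, again with overlap.

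Levels of different genes were compared per transcript length, in TPM, over the 6 libraries. *Dbp* was the most abundant, at 168 TPM on average (154 to 192), followed by *Tef* at 130 (122 to 142) and *Nr1d1* at 114 (107 to 126). *Arntl* at 79.3 TPM and *Nr1d2* at 71.9 TPM came next, ahead of *Per3* at 53.6 and *Clock* at 39.5. *Per2* at 30.2 and *Per1* at 26.6 TPM were lower, and *Ciart* at 7.22 TPM was the lowest. Neighbours in this order whose ranges overlapped were *Tef* and *Nr1d1*, *Arntl* and *Nr1d2*, and *Per2* and *Per1*. After PBS, 9 members stood between percentiles 67.3 and 94.5 of the genes tested in CPM, and *Ciart* stood at percentile 17.9.

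**Figure D4:**
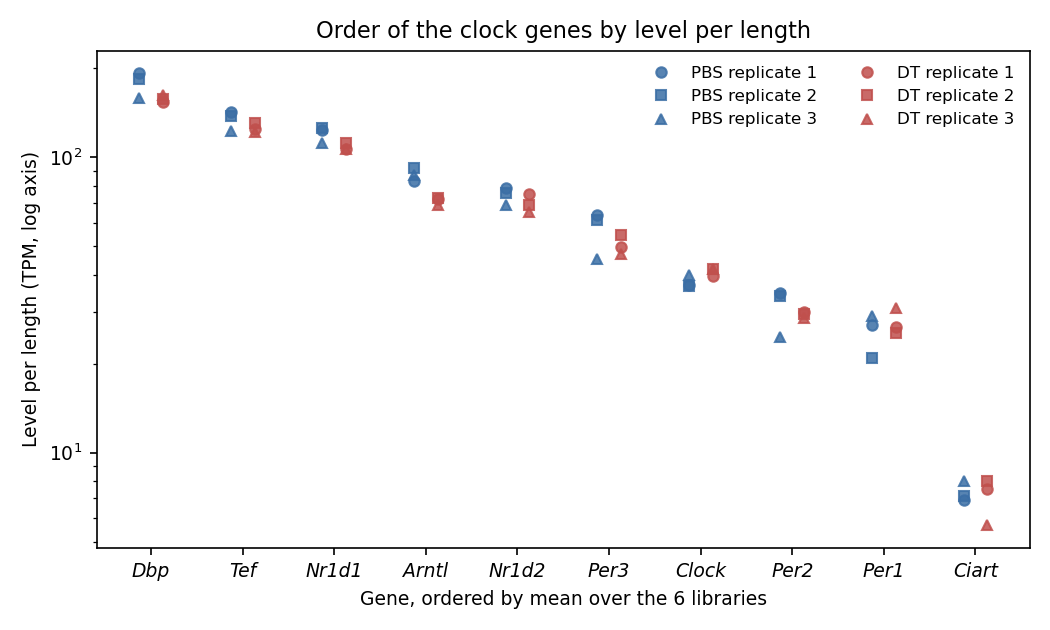
Level per length in TPM (y axis, log scale) of the 10 clock genes in each PBS (blue) and DT (red) library, ordered by the mean of the 6 libraries. *Dbp* is at the top at 168 TPM and *Ciart* at the bottom at 7.22 TPM, with ranges that overlap between *Tef* and *Nr1d1*, *Arntl* and *Nr1d2*, and *Per2* and *Per1*.

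The partners that complete the loop were listed separately, and 0 of 11 were called by limma. At an unadjusted p-value under 0.05 there were 3 (*Rora*, *Hlf* and *Bhlhe40*), where 10.4% of all genes tested reached that value. Every DT library lay below every PBS library in 2 partners and above in 1, where 7.57% and 8.75% of all genes tested did. The median of their log2 differences was 0.01. The cryptochromes, which repress CLOCK and BMAL1, had differences of -0.04 for *Cry1* and -0.08 for *Cry2*. *Npas2* was at 32.2 ± 1.52 and 32.6 ± 0.21 CPM (SD, n = 3 each), a difference of 0.02, and *Arntl2*, the paralog of *Arntl*, was at 2.61 and 2.67 CPM. Of the retinoid-related orphan receptors, which activate *Arntl* at the ROR elements, *Rora* had a difference of -0.21 and *Rorb* one of -0.14.

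*Rora* stood at 204, 201 and 193 CPM after PBS and at 150, 183 and 184 CPM after DT, with no overlap (adjusted p = 0.435 with limma). *Hlf*, the third D-box activator beside *Dbp* and *Tef*, was at 129, 116 and 109 CPM after PBS and at 101, 103 and 95.2 CPM after DT. Its groups did not overlap either, and its difference was -0.24 (standard error 0.08, adjusted p = 0.338 with limma). *Nfil3*, which represses through the D-box, had a difference of 0.34 in the other direction from 59 to 131 reads per library, but its groups overlapped (adjusted p = 0.636 with limma).

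*Bhlhe40*, which encodes DEC1, a repressor that competes for E-boxes, was the partner with the smallest p-value. It was at 164, 153 and 145 CPM after PBS and at 188, 187 and 177 CPM after DT. Every DT library was above every PBS library, with a difference of 0.25 (standard error 0.06, adjusted p = 0.189 with limma). DESeq2 called it with an adjusted p-value of 0.0465, where that tool called 2.15% of genes. Its paralog *Bhlhe41* had a difference of 0.02, with overlapping groups.

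Of 17 genes for enzymes and cofactors that modify clock proteins, 0 were called and 0 had an unadjusted p-value under 0.05, with a median difference of -0.03. *Sirt1*, a deacetylase of clock proteins, had the estimate farthest from 0, at -0.23 (adjusted p = 0.642 with limma). Of 12 output genes 0 were called and 3 had an unadjusted p-value under 0.05, where 10.4% of all genes tested did. The median difference of the output genes was -0.09. *Fmo2* had the estimate farthest from 0 among them, at -0.51 with overlapping groups (adjusted p = 0.606 with limma).

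Markers of other cells moved with the treatment beside these values, and their part in them was not tested. In bulk RNA, fewer cells of a type and less RNA per cell cannot be told apart. Over all genes tested, limma called 84 higher and 24 lower, or 0.713% in either direction. The 10 astrocyte genes summed to 56292 to 60802 CPM after PBS and 60080 to 67037 CPM after DT. Of these genes *Gfap* was called higher, with a difference of 1.93. Of 10 microglia genes, 6 were called lower, among them *Siglech*, *Itgam*, *Cx3cr1*, *Csf1r* and *P2ry12*, and their list summed to 219 to 242 CPM after PBS and 130 to 151 CPM after DT. *Siglech* was listed at 0 in all DT libraries. Of 6 genes of border-associated macrophages tested, 3 were called higher, *Lyve1*, *Mrc1* and *F13a1*, and the list of 7 summed to 18.6 to 28.9 CPM and 67.3 to 79.8 CPM. Of 8 endothelial genes 0 were called by limma and 4 had an unadjusted p-value under 0.05, where 10.4% of all genes tested did. Their list summed to 863 to 1332 CPM after PBS and 721 to 867 CPM after DT, with 0 genes at 0 in any library. All 8 estimates lay below 0. *Cldn5* was the farthest, at -0.55. Of 6 oligodendrocyte, 7 neuronal and 7 ependymal or choroid plexus genes 0 were called by limma, with 1, 0 and 5 at an unadjusted p-value under 0.05 and medians of -0.32, 0.07 and 0.55. Their lists summed to 389 to 499, 204 to 242 and 199 to 1013 CPM after PBS and to 347 to 430, 176 to 306 and 832 to 1648 CPM after DT, with 0 genes at 0 in any library.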

How the data were processed

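Values of 3 PBS and 3 DT libraries of MACS-isolated hippocampal astrocytes were used. The authors trimmed reads with Trim Galore 0.5.0, mapped them to mm10 with HISAT2 2.1.0 using strand information, removed rDNA reads with BEDTools 2.25.0, quantified genes with StringTie 1.3.5 and compared groups with edgeR 3.24.3. Whether counting used strand is not given in the sources used here. *Thra*, *Sphk2* and *C920021L13Rik* overlap *Nr1d1*, *Dbp* and *Ciart* on the opposite strand, and *Camta1* overlaps *Per3* on the same strand.

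The authors deposited a CPM signal, for which they had adjusted each library size by its TMM factor, and TPM values. The authors' own q-values, p-values and fold changes (3 per table) were left out. Whole reads were recovered from the CPM steps for 100% of values (within 0.1 read). Genes averaging 0.5 CPM or more entered limma 3.58.1 (R 4.3.3), which was run on log2(CPM + 0.1) with its variance allowed to follow the level. The added 0.1 can draw the differences of low genes towards 0. Adjusted p-values are Benjamini-Hochberg values over all genes tested, and intervals are at 95%. Single genes were also compared by exact permutation of CPM. Percentiles are among the genes tested. Scripts were tested on simulated data. Of 50 genes altered at each size there, 10% were recovered at 1.25-fold, 54% at 1.5-fold, 96% at 2-fold and 100% at 4-fold. The share of false calls was 8.45%. Every simulated gene was given the same spread between libraries (dispersion), so these shares do not cover the differing spreads of real genes.

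The members and lists were chosen with earlier results of these data known, the lists from general knowledge. Named were all members and partners, and of other lists the called genes and the one farthest from 0, except that 1 partner and 1 microglia gene are counted but not reported here. *Tsc22d3*, *Tspan4*, *Klf15*, *Mt1*, *Mt2*, *Nfkbia* and the ratio of *Clock* to *Arntl* were chosen after their values had been seen. As alternatives, the pseudocount was 0.5 or 1, the filter was dropped or raised to 2 CPM, TPM or quantile-normalized values were used, the variance trend was dropped, replicate numbers served as a block, and single libraries were omitted. DESeq2 1.42.0 and edgeR 4.0.16 (exact and quasi-likelihood) were run on the reads. Promoter sequences are RefSeq's on GRCm38.p6 and gene coordinates GENCODE M21's. P-values measure the spread between pools of mice.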

Additional observations from a re-analysis of the deposited data

How the results depend on the processing

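Of the 10 members, 0 were called higher or lower under each limma setting and both edgeR tests, and DESeq2 called 1 lower, *Arntl* at -0.31 (adjusted p = 0.0122, within 0.0122 to 0.340 over its 17 alternatives). With DESeq2, 1 partner was called higher (*Bhlhe40*) and 1 immediate early gene lower (*Fosb*). That tool called 2.15% of all genes, where limma called 0.713%. The cause of these differences was not tested. Directions turned for 3 members when 1 library was left out: *Per1* to -0.046 without PBS replicate 2, *Per2* to 0.023 without PBS replicate 1 and *Ciart* to 0.073 without DT replicate 3. With single libraries omitted, *Per1* ranged from -0.046 to 0.19, *Per2* from -0.24 to 0.023, and *Ciart* from -0.15 to 0.073. *Per3* ranged from -0.33 to -0.07 and *Dbp* from -0.27 to -0.11, the ends being without PBS replicates 3 and 1, and *Nr1d2* was at -0.17 without DT replicate 1 and -0.055 without DT replicate 3. DESeq2 and both edgeR tests called 0 genes of the modifier, output and glucocorticoid lists. The partner median was -0.06 without DT replicate 2. The difference between groups of the positive arm minus the other arm lay between -0.02 and 0.10 across these fits and was -0.01 without *Npas2*, so its direction was not determined. The deviations of same-numbered libraries correlated at 0.115, 0.0105 and 0.118. Crossed pairs of replicates 1 and 3 correlated at -0.099 (PBS 1 with DT 3) and -0.124 (PBS 3 with DT 1). PBS replicate 2 correlated no less with DT replicate 1 than with its own number. The numbers were not taken to pair the libraries in the main fit, and whether they do was not determined. With the replicate block, 0 members were called and *Arntl* was at -0.31 (limma adjusted p = 0.102). Over all genes 79 were called higher and 30 lower, against 84 and 24. Unadjusted limma p-values of *Per3*, *Tef* and *Nr1d2* fell with the block to 0.074, 0.077 and 0.080, from 0.21, 0.18 and 0.24. Those of *Arntl* and *Ciart* rose, and those of the remaining members fell as well. Reads of *Ciart*, *Arntl2* and *Nfil3*, at most 131 per library, limit what their differences can show.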

Other observations

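Glucocorticoids induce *Per1*, so genes that respond to them were also read. Of 15 glucocorticoid-responsive genes 0 were called by limma, and 4 had an unadjusted p-value under 0.05, where 10.4% of all genes tested did. These were *Tsc22d3*, lower after DT, and *Mt1*, *Mt2* and *Nfkbia*, higher at 0.19, 0.34 and 0.27. The last 3 had every DT library above every PBS library, where 8.75% of all genes tested did. In 0 listed genes every DT library lay below, where 7.57% did. Over the 15 genes the median log2 difference was -0.02, with 7 estimates above 0 and 8 below. *Tsc22d3*, the leucine zipper protein GILZ, stood at 172, 103 and 131 CPM after PBS and at 106, 91.9 and 110 CPM after DT, with overlap and a difference of -0.37 (adjusted p = 0.479 with limma). *Lcn2*, lipocalin 2, had the estimate farthest from 0 in the list at 2.11, but was listed at 0 in PBS replicate 2 and its groups overlapped.

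Of 14 immediate early genes, which respond to stimulation and to tissue dissociation, 0 were called by limma, with a median of -0.07. That median was 0.06 without PBS replicate 3 and -0.15 without PBS replicate 1, so its direction depended on a single library. An unadjusted p-value under 0.05 was found for 3, where 10.4% of all genes tested had one. In 3 of the list every DT library lay below every PBS library, and in 0 above, where 7.57% and 8.75% of all genes did. *Fosb*, an AP-1 subunit, was at 55.5, 60.2 and 87.7 CPM after PBS and at 43.7, 44.3 and 47.9 CPM after DT. Its groups did not overlap, and its difference was -0.55 (adjusted p = 0.253 with limma). PBS replicate 3, which was the lowest PBS library for *Per2* and *Per3*, was the highest for *Fosb*. *Tspan4*, from the list of output genes, was at 11.3, 10.46 and 10.9 CPM after PBS and at 16.9, 13.3 and 15.1 CPM after DT, without overlap (difference 0.46, adjusted p = 0.215 with limma). *Klf15*, of the same list, had every DT library below every PBS library (difference -0.18, adjusted p = 0.464 with limma). These were the only output genes without overlap, 1 in each direction, where 8.75% of all genes tested were above and 7.57% below.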
